A study of Sus scrofa with 6 samples.

Results

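Neuropeptide precursors, together with the granins, processing enzymes and priming factors of the dense-core vesicle, were examined in brain messenger RNA of 3 Rongchang pigs and 3 wild boars. The gene set held 40 members chosen by name: 27 precursors and 13 vesicle and processing genes. Of these, 25 were matched by symbol to a row among the 18225 genes of the deposited table (15 precursors and 10 vesicle and processing genes), and are said below to have a row. The other 15 were not matched and were not analysed here. Identifiers without a symbol may include some of them. Rongchang is a domesticated Chinese breed, and both groups were 210 days old. Each library came from the brain of 1 numbered animal, with no region, sex or treatment given in the labels. Values are FPKM, which count fragments relative to transcript length and to the total mapped, so levels can be set side by side between genes.

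Neuropeptides are made as long precursor proteins that enter the secretory pathway and are packed with granins into dense-core vesicles. Inside the vesicle, prohormone convertases cut the precursor at pairs of basic residues, carboxypeptidase E trims the exposed basic residues, and the amidating enzyme PAM finishes many peptides at their C-terminus. Release is slower than that of classical transmitters and depends on priming factors such as CADPS2. In the cerebral cortex most of these precursors are made by particular classes of inhibitory interneuron, whereas cholecystokinin is also made by excitatory cells, and vasopressin, oxytocin, orexin and melanin-concentrating hormone are made mainly in the hypothalamus.

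The 25 measured members spanned a wide range of levels. Carboxypeptidase E (CPE) was the most abundant, at 562 to 773 FPKM over the 6 libraries. The cholecystokinin precursor CCK followed at 340.4 to 658 FPKM, and PCSK1N, the granin-like inhibitor of the convertase PCSK1, at 404 to 542 FPKM. The ranges of these 3 genes overlapped, so their order is not fixed by these libraries, and all 3 lay above every value of the next gene, SCG5, at 88.9 to 175 FPKM. Between SCG5, CHGA, NPY and SCG2 each neighbour overlapped the next. SCG2 lay above PAM in every library, and PAM above SCG3. From SCG3 downward through PCSK2, PCSK1, VIP, CARTPT, CADPS2, PENK, CRH, TAC1, CORT and AVP each gene overlapped its neighbour in the order.

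**Figure D1:**
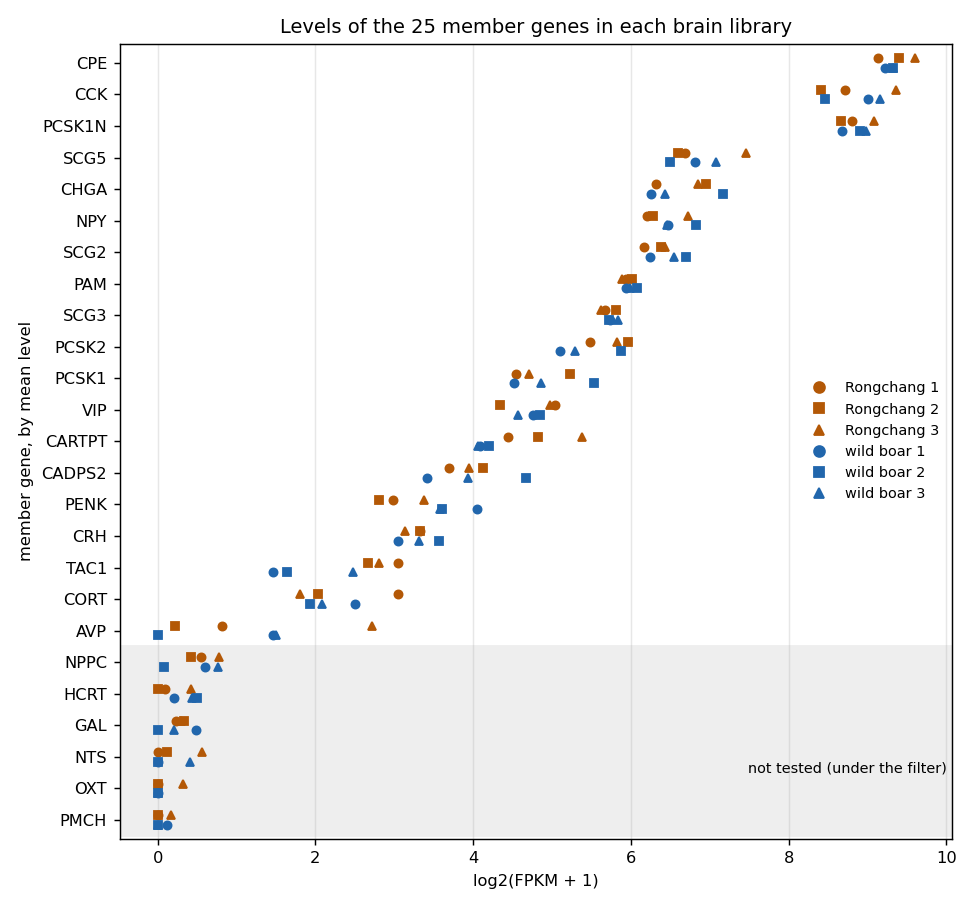
Level of each of the 25 measured members (rows, ordered by mean) in each library on a log2(FPKM + 1) axis, with colour for breed and marker shape for the animal number. CPE, CCK and PCSK1N lie above all others, and the 6 genes on grey stayed under 1 FPKM in every library.

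Another 6 measured members stayed under 1 FPKM in all 6 libraries and were not tested. They were the precursors of oxytocin (OXT, highest value 0.25 FPKM), melanin-concentrating hormone (PMCH, 0.12), orexin (HCRT, 0.41), galanin (GAL, 0.40) and neurotensin (NTS, 0.48), and of C-type natriuretic peptide (NPPC, 0.72). OXT was listed at 0 in 5 libraries, the exception being Rongchang 3. The hypothalamic transcription factor genes OTP and NR5A1, the 2 of 11 hypothalamic markers with a row, summed to 0 to 0.20 FPKM per library. Of 9 anterior pituitary markers, 4 had a row, and they summed to 0.23 to 1.21 FPKM. Markers of cerebral cortex projection neurons were high in contrast, with SLC17A7, the vesicular glutamate transporter, at 226 to 330 FPKM. Values of AVP, the vasopressin precursor, should be read with caution, as part of its sequence is near-identical to that of OXT. Any effect of this on the values was not tested.

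Of the 19 members tested, 0 differed between the breeds at an adjusted p under 0.05 (limma, Benjamini-Hochberg over all 13152 genes tested), where 0.0076% of all genes tested did. The test was run on log2(FPKM + 1), and every difference below is wild boar minus Rongchang on that scale, which understates changes of low genes. At an unadjusted p under 0.05, 3 of the 19 members stood apart, 1 above and 2 below Rongchang. Of all genes tested 6% did so, 0.578% above and 5.42% below. The same 3, PENK, TAC1 and CARTPT, were the members whose breeds did not overlap. Of all genes, 1.12% were without overlap on the higher side and 11.4% on the lower side. The median difference was 0.0031 over the 19 members and −0.13 over all genes tested. Without Rongchang 2 these medians were −0.078 and −0.13. Below 0 lay 9 of the 19, against 77.9% of all genes, and 15 of the 19 lay above the median gene.

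**Figure D2:**
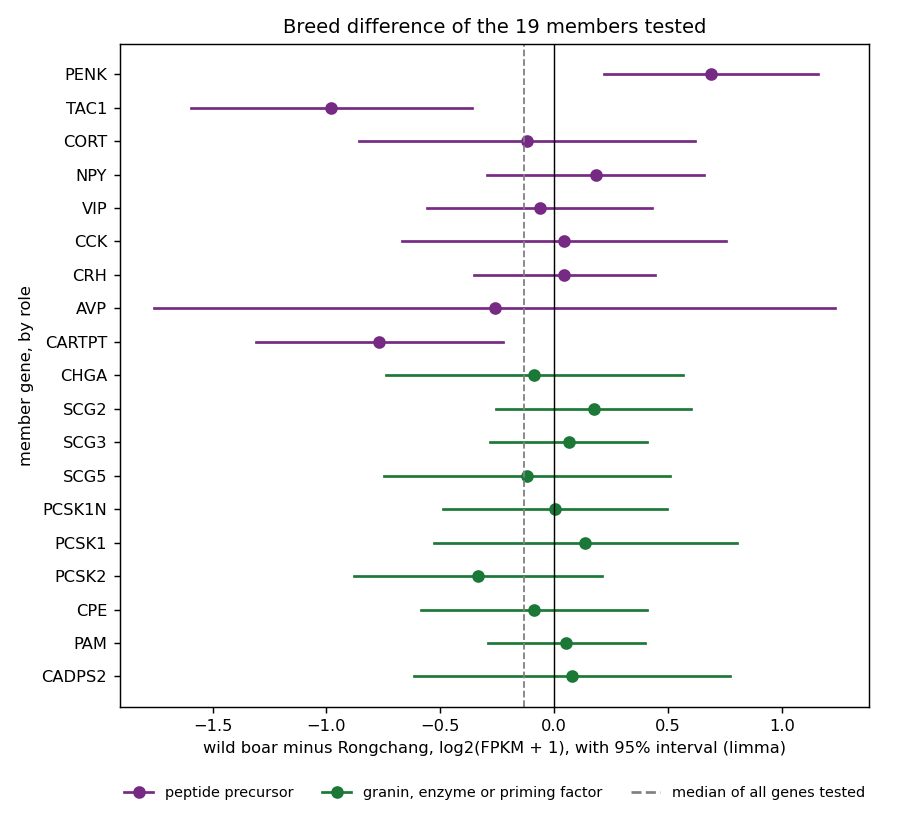
Difference between the breeds for each of the 19 members tested (points, wild boar minus Rongchang in log2(FPKM + 1)) with its 95% interval from limma, ordered by role. The intervals of PENK, TAC1 and CARTPT do not reach 0, those of the other 16 do, and the dashed line marks the median of all genes tested at −0.13.

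PENK encodes proenkephalin, the precursor of the enkephalins that act on delta and mu opioid receptors. It stood at 6.91, 6.01 and 9.37 FPKM in Rongchang 1, 2 and 3 and at 15.5, 11.2 and 10.98 FPKM in wild boar 1, 2 and 3. The lowest wild boar lay above the highest Rongchang pig, and the means were 7.43 ± 1.74 and 12.6 ± 2.57 FPKM (SD, n = 3 per breed), a ratio of 1.69. The difference was 0.69 ± 0.20 log2 units (SE; 95% interval 0.22 to 1.16) with an adjusted p of 0.766 in limma. Of the 4 opioid precursors listed, PENK alone was matched by symbol. Of the opioid receptor genes, OPRK1, the kappa receptor, stood at 1.64 ± 0.385 FPKM among the Rongchang pigs and 1.67 ± 0.848 among the wild boars. OPRM1, the mu receptor, lay under the filter, at 0.32 to 0.72 FPKM in the Rongchang pigs and 0.10 to 0.44 in wild boar.

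TAC1 encodes the precursor of substance P and neurokinin A. It was at 7.29, 5.34 and 5.97 FPKM in the Rongchang pigs and at 1.77, 2.10 and 4.57 FPKM in the wild boars. The breeds did not overlap, but wild boar 3 lay closer to the Rongchang pigs than to the other wild boars. The means were 6.197 ± 0.993 and 2.81 ± 1.53 FPKM, and the difference was −0.98 ± 0.27 log2 units (95% interval −1.59 to −0.36; adjusted p of 0.766 in limma). TACR3, a receptor of the tachykinin family, stayed under 1 FPKM in every library. TACR1, the other tachykinin receptor gene listed, was not matched by symbol, so its level is not known here.

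CARTPT encodes the precursor of the CART peptides, which are known from feeding and reward circuits. It was at 20.7, 27.4 and 40.5 FPKM in Rongchang 1, 2 and 3, and at 16.0, 17.3 and 15.7 FPKM in the wild boars. The wild boars lay close together under the lowest Rongchang value, while the Rongchang pigs spread widely, so that the SD was 10.1 FPKM in the Rongchang pigs and 0.883 in wild boar. The difference was −0.77 ± 0.24 log2 units (95% interval −1.31 to −0.23) with an adjusted p of 0.784 in limma. Mitochondrial genes took 30.0% of the summed FPKM in Rongchang 3, against 39.9% to 46.8% in the other libraries. With those genes left out and the rest rescaled, the CARTPT difference was −0.74. The part of this share in the high values of Rongchang 3 was not tested.

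**Figure D3:**
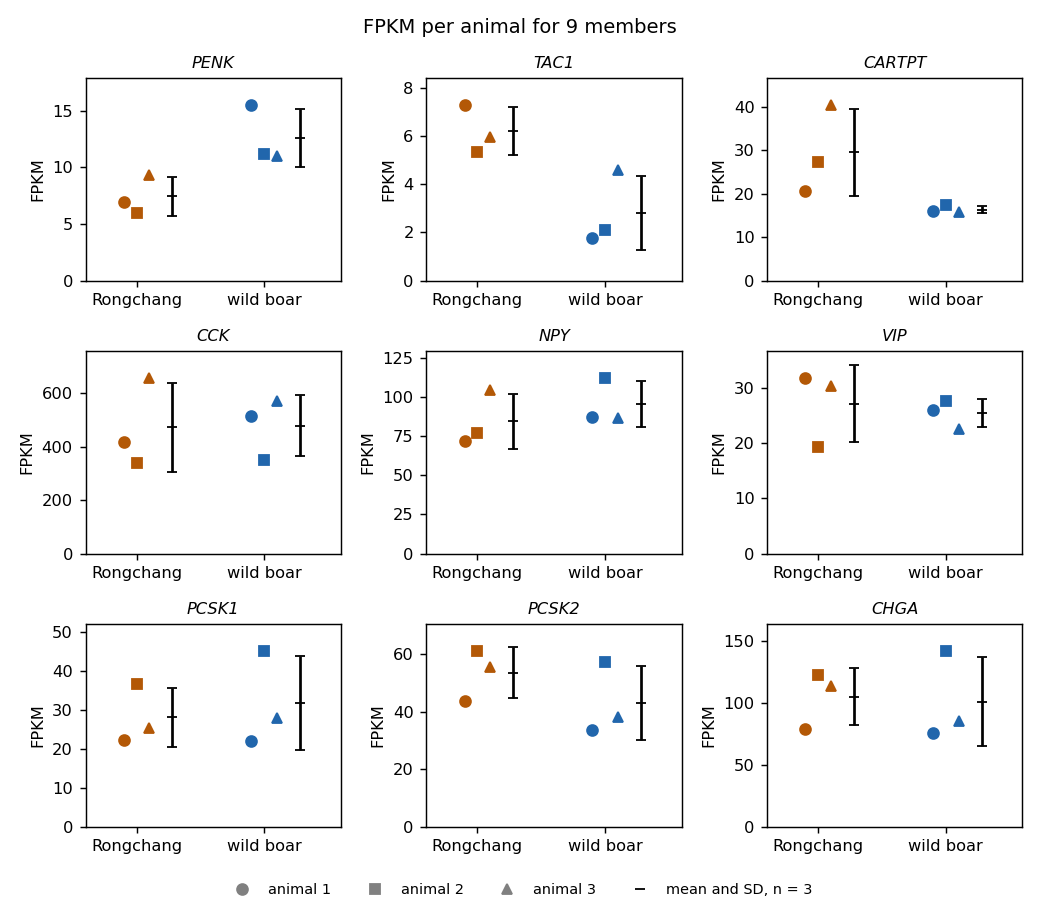
FPKM of 9 members in each animal (points; shape gives the animal number) with the mean and SD of each breed (n = 3), on linear axes from 0. PENK, TAC1 and CARTPT separate the breeds without overlap, and PCSK1, PCSK2 and CHGA are highest in animal 2 of either breed.

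PENK and TAC1 are made by different projection neurons of the striatum as well as by cortical interneurons. The ratio of PENK to TAC1 FPKM, which does not depend on how libraries are scaled, was 0.948, 1.13 and 1.57 in the Rongchang pigs and 8.79, 5.32 and 2.40 in the wild boars. The ratio was chosen after the values were known and carries no test. As PENK and TAC1 were already apart in opposite directions, it had to separate the breeds. Of 10 striatal markers 5 had a row, and they summed to 30.4 to 34.7 FPKM in the Rongchang pigs and 25.0 to 30.1 in wild boar. Of these markers 3 were tested, with 2 differences below 0 and 1 above and a median of −0.26. The breeds overlapped in all 3. Levels of the 5 markers differed widely. PPP1R1B, which encodes the dopamine-regulated phosphatase inhibitor DARPP-32, was at 18.9 to 28.4 FPKM over all libraries and PDE10A at 3.53 to 7.79. The dopamine receptor gene DRD1 was at 1.14 to 1.61 FPKM in the Rongchang pigs and 0.80 to 1.23 in wild boar, and DRD2 at 0.05 to 0.32 over all libraries. Of 12 markers of GABAergic interneurons 11 had a row and were tested, and 9 had a difference below 0, with a median of −0.17, near the 77.9% and the −0.13 of all genes tested. They summed to 328 to 474 FPKM in the Rongchang pigs and 311 to 378 in wild boar. The part of either cell type in the PENK, TAC1 and CARTPT values was not tested. In bulk tissue, fewer cells of a type and less RNA per cell cannot be told apart.

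Among the precursors typical of cortical and hippocampal interneurons, 5 of 6 had a row and none showed breeds apart. CCK was at 420, 340.4 and 658 FPKM in the Rongchang pigs and at 514, 351 and 572 FPKM in wild boar. The wild boars fell within the wider Rongchang range, the lowest library of each breed being number 2. The difference was 0.045 ± 0.31 (95% interval −0.67 to 0.76). CCK alone made up 65.5% to 78.5% of the summed FPKM of the 15 precursors measured, and NPY made up 11.9% to 21.0%. That sum was 488 to 868 FPKM in the Rongchang pigs and 536 to 729 in wild boar.

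NPY, the precursor of neuropeptide Y, stood at 72.4, 76.9 and 105 FPKM in the Rongchang pigs and 87.7, 113 and 86.9 in wild boar. The lowest 2 libraries were both Rongchang, but Rongchang 3 lay among the wild boars (0.18 ± 0.21; 95% interval −0.29 to 0.66). VIP, the precursor of vasoactive intestinal peptide, stood at 31.9, 19.3 and 30.5 FPKM and at 26.1, 27.7 and 22.7 FPKM. The wild boars fell within the Rongchang range (−0.064 ± 0.22). CRH, which encodes corticotropin-releasing hormone, stood at 8.62 ± 0.701 FPKM in the Rongchang pigs and 9.004 ± 1.81 in wild boar (0.044 ± 0.17; 95% interval −0.35 to 0.44). CORT, the precursor of the somatostatin-like cortistatin, was at 7.23 FPKM in Rongchang 1 and between 2.49 and 4.67 FPKM in the other 5 libraries (−0.12 ± 0.32). AVP was the most variable member. It stood at 0.76, 0.16 and 5.59 FPKM in the Rongchang pigs and at 1.76, 0 and 1.83 in wild boar. The libraries numbered 2 held the lowest value of each breed, and the 95% interval of the breed difference ran from −1.76 to 1.24.

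The granins help to form the vesicle core, and some of them bind or regulate the convertases. All 5 with a row were abundant and overlapped between the breeds. Chromogranin A (CHGA) stood at 78.8, 122.8 and 114 FPKM in the Rongchang pigs and at 75.5, 142 and 85.5 FPKM in wild boar, so that the number 1 library was lowest and the number 2 library highest in either breed. Secretogranin II (SCG2) stood at 79.5 ± 7.85 FPKM in the Rongchang pigs and 90.3 ± 14.3 in wild boar (0.17 ± 0.18). SCG5, which encodes the chaperone 7B2 of the convertase PCSK2, was highest in Rongchang 3 at 175 FPKM, with the other libraries between 88.9 and 134 FPKM (−0.12 ± 0.27). PCSK1N stood at 463 ± 71.5 and 462 ± 49.0 FPKM (0.0031 ± 0.21; 95% interval −0.49 to 0.50). Secretogranin III (SCG3), which binds CHGA at the vesicle membrane, was among the least variable genes of all those tested. It ranged only from 48.3 to 56.2 FPKM, and its SD within a breed of 0.082 log2 units lay at the 3.6 percentile of the genes tested.

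All 4 processing enzymes had a row. PAM was as steady as SCG3, at 60.4, 63.7 and 58.2 FPKM in the Rongchang pigs and 60.4, 66.5 and 62.4 in wild boar (SD within a breed of 0.067 log2 units, the 1.79 percentile). PCSK1, which makes the first cuts in many precursors, stood at 22.2, 36.6 and 25.2 FPKM in the Rongchang pigs and at 21.9, 45.1 and 27.9 in wild boar. The 2 breeds overlapped throughout, and the number 2 library was the highest of each (0.14 ± 0.29; 95% interval −0.53 to 0.80). PCSK2, which acts later on the intermediates, stood at 43.7, 61.1 and 55.6 FPKM and at 33.4, 57.4 and 38.1 FPKM. Within each animal number the wild boar lay below the Rongchang pig, while the breeds as groups overlapped (−0.33 ± 0.24; 95% interval −0.88 to 0.21; adjusted p of 0.846 in limma). CPE stood at 670 ± 105 and 625 ± 27.1 FPKM (−0.088 ± 0.22). The priming factor CADPS2 was lowest in wild boar 1 at 9.64 FPKM and highest in wild boar 2 at 24.3 FPKM, so the wild boars enclosed the Rongchang range of 11.9 to 16.5 FPKM.

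Ratios between partner genes within a library were computed as further descriptions, chosen with the values known. The ratio of PCSK2 to PCSK1 was 1.97, 1.67 and 2.21 in Rongchang and 1.53, 1.27 and 1.36 in wild boar, without overlap. The ratio of the inhibitor PCSK1N to PCSK1 was 20.0, 11.02 and 21.5 in Rongchang and 18.6, 10.6 and 18.0 in wild boar, lowest in the number 2 library of either breed. The ratio of SCG5 to PCSK2 was also lowest there, at 2.33, 1.57 and 3.14 in Rongchang and 3.34, 1.55 and 3.51 in wild boar. The breeds overlapped in PCSK1N to PCSK1 and in SCG5 to PCSK2. They also overlapped in CPE to PCSK1, CCK to NPY, CCK to VIP, CHGA to SCG3 and PCSK1 to PAM, which were computed too. The share of all gene pairs whose ratio stays apart was not computed.

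Rongchang 2 and wild boar 2 lay away from the other 4 libraries on the first principal component of all genes tested. Of the 19 members, 5 (PCSK1, PCSK2, PAM, CHGA and CADPS2) had their highest value in the number 2 library in both breeds, against 28.5% of all genes tested. All 5 belong to the 10 vesicle and processing genes. Another 3 (CCK, SCG5 and AVP) had their lowest value there in both breeds, against 21.4%. The counts over all 19 members are thus near those of all genes. PCSK1 exceeded the mean of the other libraries of its breed by 0.61 log2 units in Rongchang 2 and by 0.84 in wild boar 2, and CCK lay at −0.63 in either. Some cell type markers moved with the same libraries. Of 7 markers of cortical projection neurons tested, 6 were highest in the number 2 library of both breeds, with sums of 418 FPKM in both number 2 libraries and 275 to 369 in the others. All 4 microglia markers were lowest there, with sums of 48.2 and 37.6 FPKM against 67.6 to 84.4, as were all 3 blood markers, with sums of 68.5 and 58.5 FPKM against 140 to 276. Other lists were mixed. Of 11 interneuron markers tested, 4 were highest there in both breeds and 1 lowest, and of 8 markers of all neurons 3 were highest. Lowest there were 3 of 6 astrocyte and 3 of 4 oligodendrocyte markers, while 0 of 3 endothelial markers were highest or lowest. The part of these cell types in the values of the members was not tested.

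**Figure D4:**
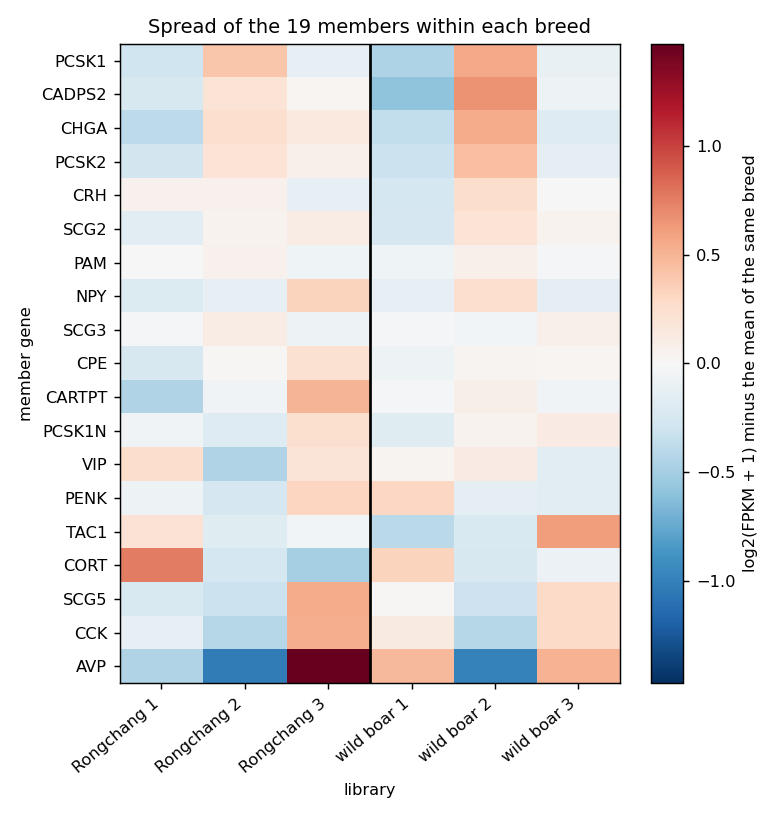
Deviation of each library from the mean of its own breed, in log2(FPKM + 1), for the 19 members tested, ordered by the deviation of the number 2 libraries. PCSK1, CADPS2, CHGA and PCSK2 at the top are high in Rongchang 2 and wild boar 2, and SCG5, CCK and AVP at the bottom are low there.

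With both number 2 libraries left out, 2 libraries of each breed remained. PENK (0.64), SCG3 (0.14) and PAM (0.051) then lay higher without overlap, 3 of the 19 members against 5.35% of all genes, and PAM only by 60.36 against 60.38 FPKM. TAC1 (−0.95), CARTPT (−0.84), PCSK2 (−0.46) and VIP (−0.35) lay lower without overlap, 4 of the 19 against 38.1% of all genes. At an unadjusted p under 0.05, 4 of the 19 members then stood apart, against 8.94% of all genes, and 0 passed after adjustment (limma). With the animal number as a block, which gave the members no adjusted call either, 4 of the 19 had an unadjusted p under 0.05, against 17.4% of all genes. With the block and median scaling together, 5 lay above Rongchang at that mark (PENK, NPY, SCG2, PCSK1 and PAM), against 5.47% of all genes, and 2 below (TAC1 and CARTPT). In either direction these were 7 of the 19 members, against 10.5% of all genes.

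Over all genes tested the median difference was −0.13, so values were also compared after each library had been scaled to the same median. PENK (0.85) and CARTPT (−0.60) still separated the breeds. TAC1 (−0.84) no longer did, since scaled wild boar 3 at 5.016 FPKM passed scaled Rongchang 2 at 5.003. NPY (0.36), SCG2 (0.35), SCG3 (0.23) and PAM (0.23) lay above Rongchang without overlap after scaling, NPY by the narrow margin of 95.2 against 95.3 FPKM. In all, 5 of the 19 members lay higher without overlap and 1 lower, against 5.03% and 3.87% of all genes scaled in this way. No member passed after adjustment (0 in limma; 3 at an unadjusted p under 0.05, against 3.76% of all genes). The differences of CORT, VIP, CHGA, SCG5 and CPE lay below 0 as deposited and above 0 after scaling.

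The rest of the peptide system was followed in 4 further lists, in which 0 genes passed the adjusted threshold (limma). Of 36 peptide receptor genes 22 had a row and 14 were tested, and 12 of the 14 had a difference below 0, near the 77.9% of all genes tested. Their median was −0.23, or −0.10 relative to the median gene. None of the 14 had an unadjusted p under 0.05. The receptor of pituitary adenylate cyclase-activating peptide, ADCYAP1R1, was the most abundant at 37.7 ± 2.16 FPKM in the Rongchang pigs and 36.5 ± 2.15 in wild boar. The somatostatin receptor genes SSTR1 (20.9 ± 4.01 and 15.0 ± 3.41 FPKM, −0.45) and SSTR3 (8.84 ± 2.21 and 6.26 ± 2.52, −0.47) and the parathyroid hormone receptor gene PTH1R (4.46 ± 0.90 and 3.43 ± 0.422, −0.29) had the smallest p.

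Among 6 peptide-degrading enzymes tested, 1 had an unadjusted p under 0.05, where 6% of all genes tested did. This was THOP1, thimet oligopeptidase, at 11.4 ± 1.48 FPKM in the Rongchang pigs and 7.88 ± 1.54 in wild boar (−0.49, adjusted p of 0.789 in limma). It was without overlap on the lower side, where 11.4% of all genes tested were. The angiotensin-converting enzyme ACE stood at 5.32 ± 1.22 and 7.66 ± 1.54 FPKM (0.46), PREP at 16.7 ± 3.17 and 15.0 ± 2.02 (−0.14), and the most abundant, NPEPPS, at 36.9 ± 4.68 and 35.4 ± 5.58 (−0.062).

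Of 13 other processing and dense-core vesicle genes tested, 10 had a difference below 0, against 77.9% of all genes, with a median of −0.068, and 1 had an unadjusted p under 0.05, against 6%. That gene was PCSK6, a convertase of the constitutive secretory pathway, at 7.25, 7.92 and 7.93 FPKM in the Rongchang pigs and 12.1, 9.15 and 10.2 FPKM in wild boar. The wild boars all lay above the Rongchang pigs (0.39 ± 0.15, adjusted p of 0.789 in limma), where 1.12% of all genes tested were apart on that side. The vesicle calcium sensor SYT9 (1.07 ± 0.0111 and 0.613 ± 0.307 FPKM, −0.38), which reached the filter through the Rongchang libraries alone, and ICA1 (7.59 ± 1.14 and 5.92 ± 2.31, −0.35) followed, and the most abundant was the small GTPase gene RAB2A at 97.0 ± 22.3 and 88.7 ± 15.3 FPKM. SYT9 was without overlap on the lower side, where 11.4% of all genes tested were. The number 2 library was highest in both breeds for 7 of the 13, among them the vesicle membrane protein genes PTPRN and PTPRN2, against 28.5% of all genes tested.

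Several precursors, PENK among them, are known to be transcribed after neuronal activity, and 12 activity-regulated genes were tested beside them. Of these, 3 lay above Rongchang and 1 below at an unadjusted p under 0.05, against 0.578% and 5.42% of all genes. The same 4 were without overlap, against 1.12% and 11.4%. The immediate-early transcription factor gene JUNB stood at 15.7 ± 1.66 FPKM in the Rongchang pigs and 9.86 ± 0.546 in wild boar (−0.61; adjusted p of 0.724 in limma). The neurotrophin gene BDNF stood at 3.94 ± 0.208 and 6.11 ± 0.728 FPKM (0.52), and HOMER1, which encodes a scaffold of glutamate receptors, at 22.8 ± 4.19 and 36.3 ± 8.98 FPKM (0.64). The nuclear receptor gene NR4A2, at 8.76 ± 0.88 and 12.6 ± 2.62 FPKM (0.47), was the other gene without overlap on the higher side and is named outside the rule, after its values were seen. Of the 12, 7 had a difference above 0 and 5 below. FOS (−0.33) and EGR1 (−0.26), also named outside the rule, lay below 0 with the breeds overlapping. Whether neuronal activity had a part in the values of PENK or other members was not tested.

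**Figure D5:**
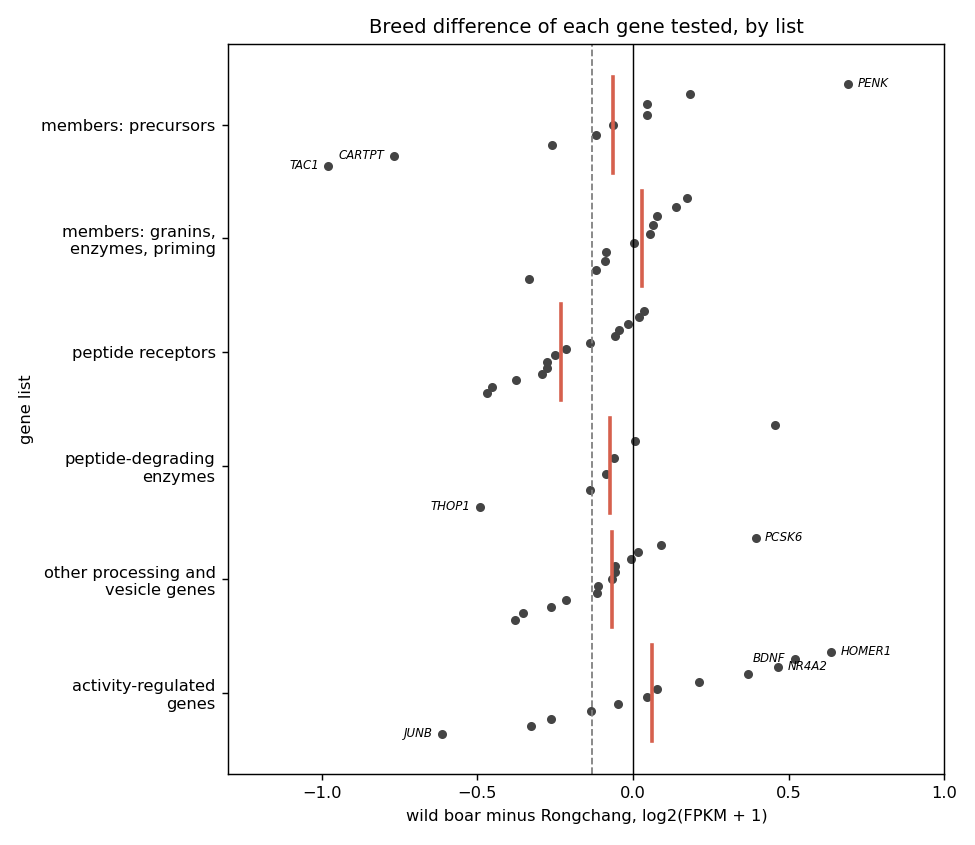
Difference between the breeds of every gene tested in the member classes and the 4 further lists (points, wild boar minus Rongchang in log2(FPKM + 1)), with the list median as a red bar and names for genes with an unadjusted p under 0.05. The dashed line is the median of all genes tested at −0.13, and the median of the receptor list lies at −0.23.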

How the data were processed

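Messenger RNA was measured in 6 brain libraries, 3 per breed. Per the labels' protocols, poly(A) RNA was used for dUTP-stranded libraries read as 100-bp pairs. TopHat2 2.0.11, Cufflinks 2.2.1 and Cuffdiff are named in the submitters' processing notes, without roles. Genome build and strand setting: not given in the sources used here. The deposited FPKM values carry no unit in the header; the unit was judged from those tools and from the values. Depth is unknown: low values showed no common step (at most 23.7% of ratios between any 2 libraries fell within 0.04 log2 units).

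Symbols were matched by Ensembl identifier (10937 of 18225). Genes reaching 1 FPKM in 3 or more libraries were tested with limma 3.58.1 (R 4.3.3, mean-variance trend, two-sided) on log2(FPKM + 1), after a check on simulated data. Members, lists and ratios were chosen with earlier results of these data known. All members with a row are named, and per further list the most abundant gene and up to 3 with the smallest p. Nothing in the labels gives the origin of the animals, and p-values measure only the spread among these samples. Deviations from the breed means correlated at 0.28, 0.59 and 0.37 between animals of the same number, and between −0.45 and 0.12 otherwise. Deviations cancel out within a breed, so these correlations depend on one another, and the highest was between the number 2 libraries. The number may have behaved as a pairing, but the correlations cannot decide this and no label states one. The main test ignored the number, so the intervals and p-values given are unpaired unless the block is named. Alternatives were another pseudocount, other filters and scalings, no trend, the number as a block, and libraries left out.

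Markers of all neurons, astrocytes, oligodendrocytes, endothelial cells, choroid plexus and cerebellum were also tested, 23 genes in all, and 0 passed (limma; 1, ALDH1L1, at an unadjusted p under 0.05). No gene of the other marker lists passed either.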

Additional observations from a re-analysis of the deposited data

How the results depend on the processing

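No member passed the adjusted threshold under any of the 15 alternatives (0 in limma; 2 to 7 at an unadjusted p under 0.05). PENK, TAC1, CARTPT, NPY, SCG2, SCG3, PCSK2 and PAM kept the sign of their difference in every alternative computed for them. PENK ran from 0.54 to 0.85, CARTPT from −0.99 to −0.52 and TAC1 from −1.29 to −0.78. Against the value with all libraries, leaving out 1 library moved each of the other 5 by over 1.5 times at the extreme. PENK, TAC1 and CARTPT moved by less than that. With 1 library left out, PCSK2 ran from −0.56 to −0.18, NPY from 0.062 to 0.34 and SCG2 from 0.071 to 0.30. SCG3 then ran from 0.026 to 0.12 and PAM from 0.016 to 0.088. NPY stood at 0.0030 without both number 2 libraries. With the animal number as a block, 4 members had an unadjusted p under 0.05 (PCSK2 in addition) against 17.4% of all genes, and 7 did with the block and median scaling, 5 higher and 2 lower, against 10.5% of all genes. The block changed no adjusted call. The median of the members was 0.18 with median scaling, with or without the block, where the median of all genes was 0.015. It was −0.12 without both number 2 libraries and −0.078 without Rongchang 2. The members then lay 0.043 and 0.054 above the median of all genes, against 0.14 with all libraries. Over all genes 1 was called, against 3 with a pseudocount of 0.1, 3 without both number 2 libraries, 0 with a mean of at least 5 FPKM (405 at an unadjusted p under 0.05) and 1 to 4 with 1 library left out. The cause was not tested.

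The other 11 members changed sign in at least 1 alternative. Median scaling, with or without the block, gave 0.016 for CORT, 0.10 for VIP, 0.084 for CHGA, 0.053 for SCG5 and 0.085 for CPE. Without both number 2 libraries CRH was at −0.057, PCSK1N at −0.12 and CADPS2 at −0.15. With 1 library left out at a time, CORT ran from −0.36 to 0.26, VIP from −0.29 to 0.064, CCK from −0.16 to 0.31, CRH from −0.087 to 0.18, AVP from −0.78 to 0.47, CHGA from −0.36 to 0.093, SCG5 from −0.28 to 0.15, PCSK1N from −0.091 to 0.12, PCSK1 from −0.14 to 0.36, CPE from −0.21 to 0.021 and CADPS2 from −0.25 to 0.37. No member or list gene shared its symbol between identifiers, so summing over identifiers was not run. With 3 animals per breed the 95% interval of PAM ran from −0.29 to 0.40 and that of AVP from −1.76 to 1.24, and differences inside such bounds are not resolved.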
